A study of Mus musculus with 7 samples.

Results

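The smooth muscle contractile genes described here are 32 genes of the actin and myosin apparatus, its regulators, its anchoring proteins and its transcription factors, chosen as a fixed list of symbols. All 32 were found among the 31274 rows of the deposited table and all 32 were among the 13920 rows tested. RNA of uterine tissue had been sequenced from unexposed control mice of the outbred CD-1 strain, 2 months old, with no altered allele named in the labels. The estrus group held 3 libraries and the diestrus group 4. Whether the libraries stem from different animals is not stated, and p-values therefore cover only the spread among them, which may be technical. Values are FPKM, fragments counted per transcript length and per mapped fragments of the library.

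The myometrium is the smooth muscle coat of the uterus, with an inner circular and an outer longitudinal layer, and smooth muscle also surrounds the uterine vessels. It contracts when calcium and calmodulin activate myosin light chain kinase, which phosphorylates the regulatory light chain so that myosin pulls on actin, and it relaxes when myosin phosphatase removes that phosphate. Serum response factor with its partner myocardin switches on most contractile genes through a short DNA element, the CArG box. Estradiol prevails before estrus and progesterone in diestrus, and uterine contractility is known to change over the cycle.

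Most contractile genes were abundant, with 9 averaging over 500 FPKM and 8 from 100 to 500, and most did not pass the test between estrus and diestrus. Actg2, the gamma actin of visceral smooth muscle, rose at estrus, while Pln, an inhibitor of the sarcoplasmic reticulum calcium pump, Itga8, an integrin alpha chain, and Smtn, the actin-binding smoothelin, fell. These 4 of 32 members (12.5%), 1 higher and 3 lower, passed an adjusted p of 0.05 in limma on log2(FPKM + 1), against 31.1% of all tested rows, 17.2% higher and 14.0% lower. The log2 fold change, estrus minus diestrus, was negative for 24 members and positive for 8 (25%), against 53.2% positive of all tested rows. Its median was -0.29, against 0.05 over all tested rows. With single libraries left out, 6 to 12 members were positive. The median then ran from -0.49 without diestrus replicate 1 to -0.10 without diestrus replicate 4. Members moved together across libraries, so these are not counts of independent genes. In estrus 26 members increased in the order of replicates 1, 2 and 3, and in diestrus 31 were highest in replicate 2 or 4. After scaling to the median member 18 were positive, but that scaling centres the members by construction. The values of the 2 groups did not overlap for 4 members (12.5%), against 40.6% of all tested rows, with 2 members higher in estrus (all rows 21.9%) and 2 lower (all rows 18.7%). In whole-tissue RNA, fewer muscle cells and less RNA per muscle cell cannot be told apart.

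**Figure D1:**
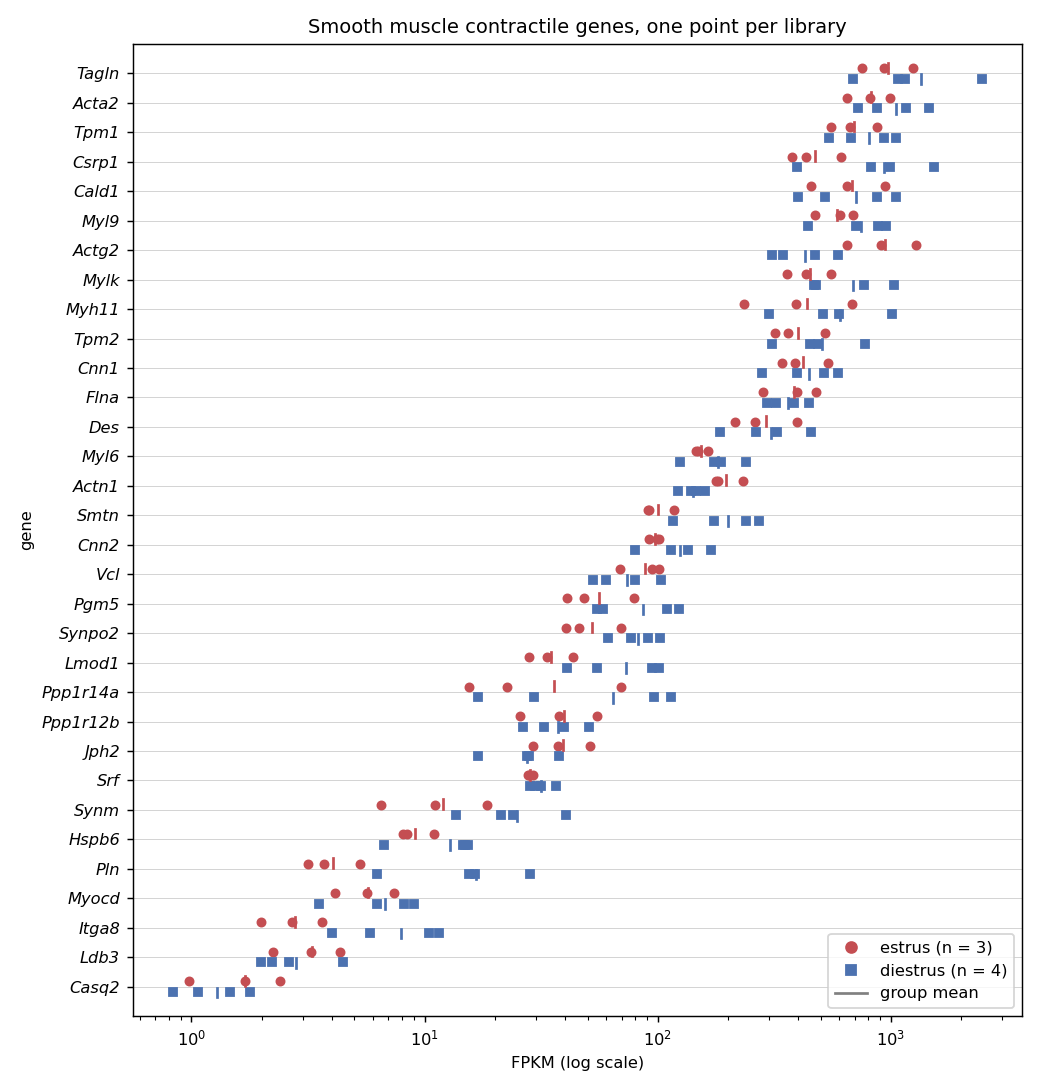
FPKM of the 32 members on a log scale, 1 point per library, circles for the 3 estrus and squares for the 4 diestrus libraries, short vertical lines for group means, genes ordered by mean. Most genes overlap between the groups, whereas all Actg2 circles lie to the right of its squares and all Pln and Itga8 circles to the left of theirs.

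Libraries of the same group differed in the summed level of the contractile genes. The summed FPKM of the 32 members was 6498, 8193 and 10895 in estrus replicates 1 to 3, against 6277, 11291, 8526 and 14427 in diestrus replicates 1 to 4. Diestrus replicate 1 held the lowest value of 12 members and estrus replicate 1 of another 12, and diestrus replicate 4 held the highest value of 14 and diestrus replicate 2 of 12. The coefficient of variation of the median member was 26.4% in estrus and 33.6% in diestrus, against 15.0% and 18.7% for the median tested row. Relative depth, estimated from the commonest ratio between libraries among the lowest values, ran from 0.92 to 1.36 times that of estrus replicate 1. The 10 highest rows took 33.7% to 38.2% of the FPKM sum in estrus, against 12.1% to 34.2% in diestrus, with the 34.2% in diestrus replicate 1. Without diestrus replicate 1, 8 of 32 members passed lower and 1 higher, against 17.7% lower and 20.8% higher of all rows tested in that fit. Actg2 was the higher one, and Lmod1, Synm, Synpo2, Hspb6 and Csrp1 joined Smtn, Pln and Itga8. The limma adjusted p was then 0.0452 for Synm, 0.0311 for Synpo2 and 0.0124 for Hspb6. Synpo2 also passed without estrus replicate 3 (0.0323). Leaving out other libraries moved these genes the other way. Without estrus replicate 1 the limma adjusted p was 0.282 for Synm, 0.509 for Hspb6, 0.362 for Csrp1 and 0.171 for Lmod1. For Synpo2 it was 0.196 without estrus replicate 2.

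Markers of other uterine cell types moved between the same libraries. The counts below stand against 17.2% of all tested rows that passed higher and 14.0% that passed lower. Summed over the list, 10 uterine epithelium markers stood at 3174 to 3556 FPKM in estrus and 849.98 to 1161 in diestrus, with 8 of 10 higher. The 8 endothelium markers summed to 136 to 174 FPKM in estrus and 235 to 537 in diestrus, and all 8 passed lower. The 8 pericyte markers summed to 116 to 175 FPKM in estrus and 185 to 308 in diestrus, with 3 lower (Rgs5, Kcnj8 and Abcc9), and 11 stroma markers to 3226 to 4211 in estrus and 3008 to 5479 in diestrus, with 6 lower. The 10 defining smooth muscle markers, all of them members, summed to 2970 to 5296 FPKM in estrus and 2649 to 6949 in diestrus. Among striated muscle markers, 9 of 14 averaged under 1 FPKM and none of the 6 tested passed. Their sums were 93.4 to 144 in estrus and 60.4 to 184 in diestrus. Acta1 alone gave 68.5 to 109 FPKM in estrus and 43.1 to 129 in diestrus. Adipocyte markers summed to 3.13 to 41.7 FPKM in estrus and 26.1 to 142 in diestrus with none of 6 passing, and macrophage markers to 234 to 309 in estrus and 110 to 165 in diestrus with 1 higher and 2 lower of 6. Cd14, the macrophage marker that passed higher, alone gave 184 to 212 FPKM in estrus and 43.2 to 56.2 in diestrus, while Csf1r and Emr1 passed lower. No marker of these lists was at 0 in every library. The part of these differences in the contractile gene results was not tested.

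**Figure D2:**
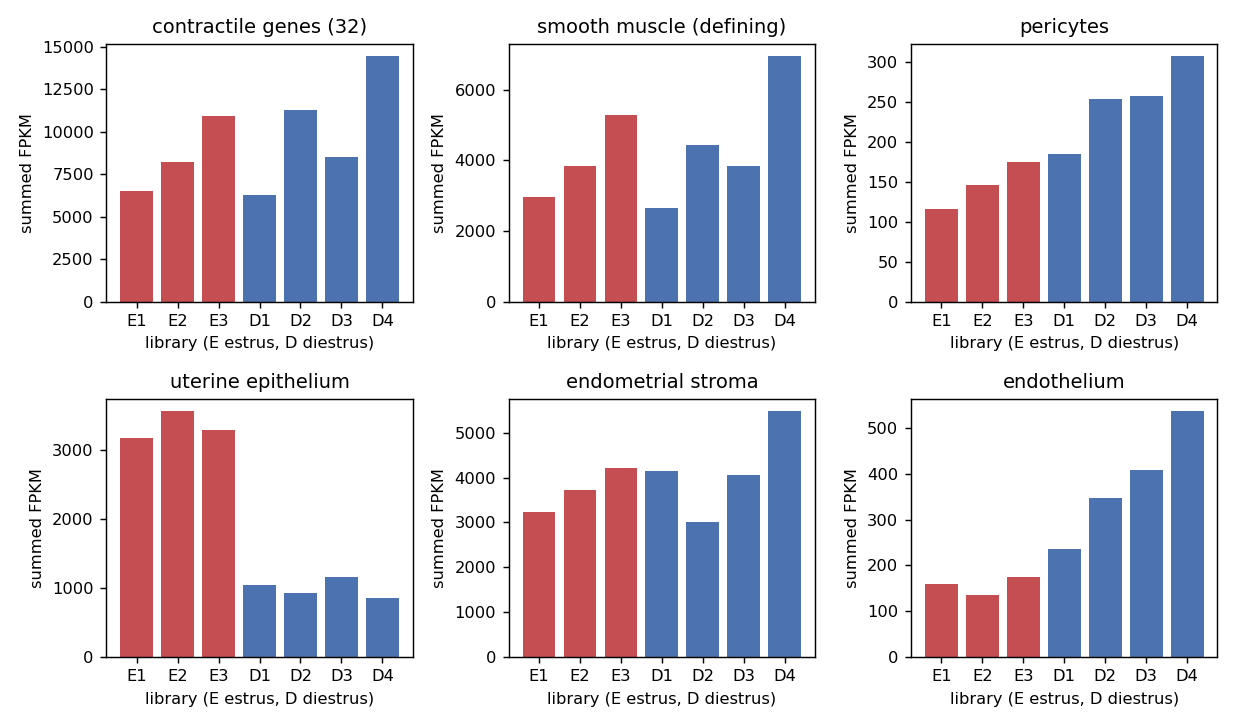
Summed FPKM (vertical axis) of the 32 contractile genes, their 10 defining markers and the markers of 4 other cell types in each library, estrus (E1 to E3) before diestrus (D1 to D4). The contractile sums overlap between the groups (6498 to 10895 in estrus, 6277 to 14427 in diestrus), the epithelial sums are higher in every estrus library and the endothelial and pericyte sums are lower in every estrus library.

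The thin filament is built on actin. Actg2 (GRCm38 chromosome 6, 83512905 to 83536265, minus strand, protein-coding) was listed at 649.7, 909 and 1277 FPKM in estrus replicates 1 to 3, against 309, 345, 472 and 593 FPKM in diestrus replicates 1 to 4. Every estrus library was above every diestrus library. The means were 945 ± 315 FPKM in estrus (SD, n = 3) and 429.8 ± 129.5 FPKM in diestrus (SD, n = 4). The log2 fold change was 1.13, with an SE of 0.32 (adjusted p = 0.0319 in limma; exact two-sided permutation p = 0.0571, where 0.0286 is the smallest possible). The limma adjusted p was 0.0838 without estrus replicate 3, 0.106 without estrus replicate 2, 0.0689 without diestrus replicate 2, 0.0549 without diestrus replicate 3 and 0.0699 with no filter on low values. Acta2, the alpha actin of smooth muscle and the usual marker of the tissue (chromosome 19, 34241090 to 34255590), did not pass. It was listed at 651, 816 and 994 FPKM in estrus, against 721, 1163, 869 and 1458 FPKM in diestrus, with overlapping groups (log2 -0.33, SE 0.30, limma adjusted p = 0.420).

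The ratio of the 2 actins was also taken within each library, since the libraries differed in their total of contractile RNA. Actg2 over Acta2, in FPKM, was 0.998, 1.11 and 1.28 in estrus replicates 1 to 3, against 0.429, 0.297, 0.543 and 0.407 in diestrus replicates 1 to 4. In estrus the 2 actins were at about equal FPKM or Actg2 was ahead, and in every diestrus library Acta2 was ahead. The mean ratio was 1.13 ± 0.144 in estrus (SD, n = 3) and 0.419 ± 0.101 in diestrus (SD, n = 4), or 2.75-fold higher in estrus as a geometric mean (exact two-sided permutation p = 0.0286, the smallest possible; 0.0571 adjusted over the 2 ratios examined). With single libraries left out, the difference in log2 ratio ran from 1.30 to 1.60. The ratio was chosen after the values had been seen.

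The actin genes are close relatives, so their coding sequences show how far reads can be told apart. Aligned from the stop codon without gaps, 180 of 1128 coding bases differed, an identity of 84%, and the longest identical stretch was 29 bases. None of the 1592 words of 50 bases in Actg2 transcripts occurred in transcripts of another gene, and 0.326% of those in Acta2 transcripts did. The 60 coding bases with the most differences are shown, 5′ to 3′, counted from the A of each start codon, with the 16 bases that differ in capitals.
Actg2, coding bases 433 to 492: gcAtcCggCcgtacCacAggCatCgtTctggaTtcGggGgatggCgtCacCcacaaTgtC
Acta2, coding bases 436 to 495: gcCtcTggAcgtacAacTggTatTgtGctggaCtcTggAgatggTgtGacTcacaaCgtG

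**Figure D3:**
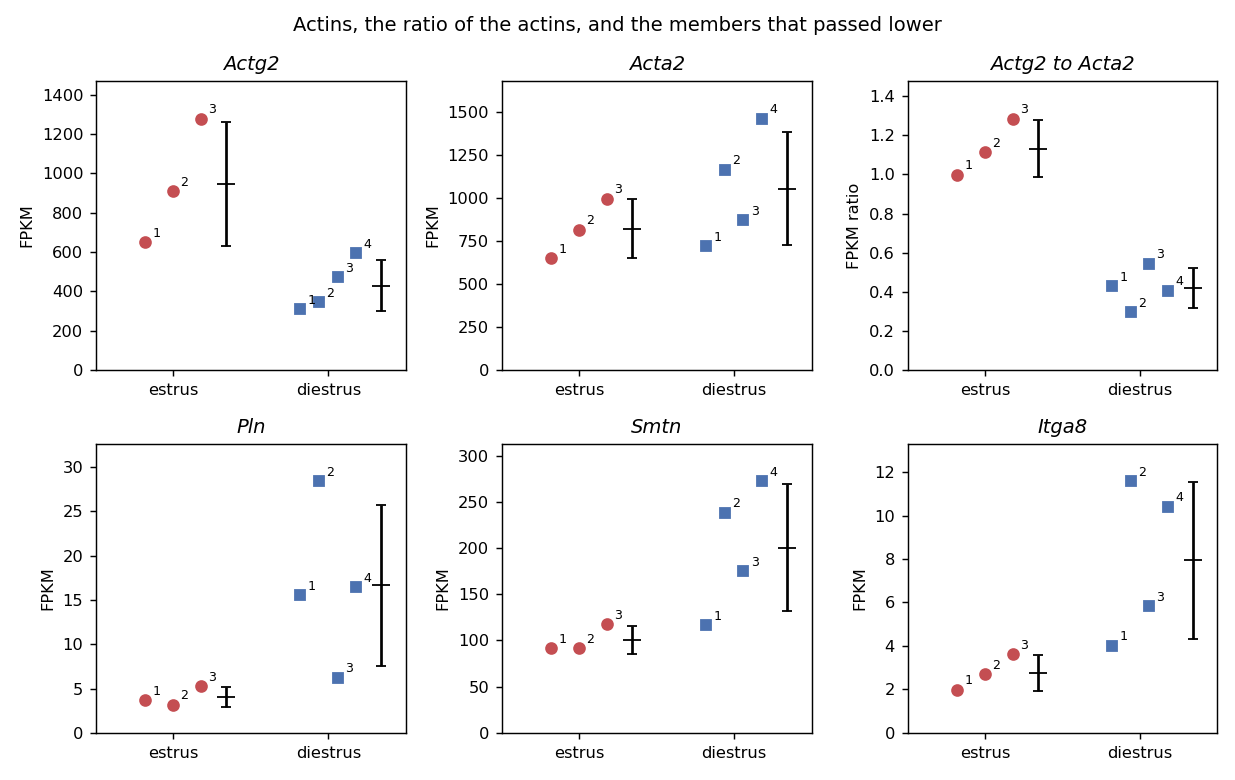
FPKM of Actg2, Acta2, Pln, Smtn and Itga8, and the ratio of Actg2 to Acta2, in each library (numbers mark the replicate), with group means and SD as bars, estrus (n = 3) left of diestrus (n = 4). The actin ratio is 0.998 to 1.28 in estrus and 0.297 to 0.543 in diestrus, while Acta2 itself overlaps between the groups.

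The other actin-binding proteins of the thin filament did not pass, apart from Smtn. Tagln, transgelin, which bundles actin, had the highest mean of all members and was listed at 754, 935 and 1238 FPKM in estrus, against 690.3, 1150.5, 1075 and 2460.4 FPKM in diestrus (log2 -0.33, SE 0.43). Diestrus replicate 4 stood far above the rest for Tagln, and diestrus replicate 1 was the lowest. Of the words of 50 bases in Tagln transcripts, 58.3% were shared with genes on the opposite strand, mainly Gm48529, and the labels do not say whether counting used strand, so part of its level is uncertain. Tpm1, a tropomyosin that lies along the actin filament, was listed at 555, 669 and 868 FPKM in estrus, against 540.4, 935, 677 and 1057 FPKM in diestrus. Tpm2, the second muscle tropomyosin, was listed at 319.5, 361 and 524 FPKM in estrus, against 309.6, 451, 487 and 773 FPKM in diestrus. Both tropomyosins overlapped between the groups, with log2 fold changes of -0.18 (SE 0.29) and -0.29 (SE 0.33).

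Cald1, caldesmon, which restrains actomyosin, was listed at 454, 646 and 948 FPKM in estrus, against 399.9, 1048, 522 and 870.3 FPKM in diestrus. Its log2 fold change of -0.02 (adjusted p = 0.979 in limma, SE 0.40) was the nearest to 0 of all members. Csrp1, a LIM protein of actin filaments, was listed at 377, 431 and 612 FPKM in estrus, against 398, 989, 825 and 1530.1 FPKM in diestrus (log2 -0.86, SE 0.44, limma adjusted p = 0.167). Diestrus replicate 1 was the only diestrus library within the estrus range. Without it Csrp1 had a log2 fold change of -1.21 and a limma adjusted p of 0.0225. Without estrus replicate 1 the limma adjusted p of Csrp1 was 0.362. Cnn1, basic calponin, which inhibits the myosin ATPase, averaged 421 ± 101 FPKM in estrus and 447 ± 138 in diestrus (SD, n = 3 and 4). Cnn2, its more widely expressed relative, averaged 97.6 ± 4.73 FPKM in estrus and 124 ± 37.3 in diestrus.

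Smtn, smoothelin, which marks contractile smooth muscle (chromosome 11, 3517523 to 3540612), was listed at 91.7, 91.3 and 118 FPKM in estrus, against 116, 238, 175 and 272 FPKM in diestrus. Estrus replicate 3 lay just above diestrus replicate 1, so the groups overlapped, and the other 3 diestrus libraries were higher than every estrus library. The means were 100.2 ± 15.0 FPKM in estrus (SD, n = 3) and 200.4 ± 69.0 FPKM in diestrus (SD, n = 4). The log2 fold change was -0.93, with an SE of 0.29 (adjusted p = 0.0441 in limma; exact permutation p = 0.0857). The call held when diestrus replicate 1 was left out (limma adjusted p = 0.00670) but not without any other library, where the limma adjusted p was 0.122, 0.146 and 0.0621 without estrus replicates 1 to 3 and 0.0919, 0.0736 and 0.0944 without diestrus replicates 2 to 4, nor with no filter (0.0722). Lmod1, leiomodin, which nucleates actin filaments in smooth muscle, was listed at 27.9 to 43.5 FPKM in estrus and 40.9 to 101 FPKM in diestrus (log2 -0.97, SE 0.33, limma adjusted p = 0.0597). Without diestrus replicate 1 its limma adjusted p was 0.0157, against 0.171 without estrus replicate 1.

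The thick filament and its switch overlapped between the groups. Myh11, the heavy chain of smooth muscle myosin (chromosome 16, 14194535 to 14291372), was listed at 234, 391 and 685 FPKM in estrus, against 299.99, 597, 513 and 1013 FPKM in diestrus (log2 -0.47, SE 0.48). Myl9, the regulatory light chain that is phosphorylated to start contraction, was listed at 473, 604 and 691 FPKM in estrus, against 441, 877, 711 and 950.5 FPKM in diestrus (log2 -0.30, SE 0.30). Both were lowest in estrus replicate 1 and diestrus replicate 1 among the libraries of their groups. Mylk, the kinase that phosphorylates it, was listed at 358, 434 and 556 FPKM in estrus, against 478, 1036, 466 and 769 FPKM in diestrus (log2 -0.55, SE 0.33, limma adjusted p = 0.224). Myl6, the essential light chain, which non-muscle cells also express, averaged 153 ± 10.04 FPKM in estrus and 182 ± 47.3 in diestrus (SD, n = 3 and 4).

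Myosin phosphatase sets how much force a given calcium level yields. Ppp1r12b, a targeting subunit of the phosphatase, averaged 39.5 ± 14.7 FPKM in estrus and 37.4 ± 10.5 FPKM in diestrus. Ppp1r14a, an inhibitor of the phosphatase that protein kinase C activates, was the most variable member. It was listed at 15.5, 22.5 and 69.3 FPKM in estrus, against 29.3, 96.5, 16.9 and 114 FPKM in diestrus. Its highest value was 4.48 times its lowest within estrus and 6.72 times within diestrus, the widest ranges of the 32, and its log2 fold change of -0.72 (adjusted p = 0.483 in limma, SE 0.76) did not pass. Hspb6, a small heat shock protein that is phosphorylated during relaxation, averaged 9.13 ± 1.58 FPKM in estrus and 12.9 ± 4.14 FPKM in diestrus.

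The sarcoplasmic reticulum stores the calcium for contraction. Pln, phospholamban (chromosome 10, 53337667 to 53345987, plus strand), was listed at 3.72, 3.18 and 5.27 FPKM in estrus, against 15.5, 28.3, 6.22 and 16.4 FPKM in diestrus. All estrus libraries lay under all diestrus libraries, with diestrus replicate 3 only just above estrus replicate 3. The means were 4.06 ± 1.09 FPKM in estrus (SD, n = 3) and 16.6 ± 9.07 FPKM in diestrus (SD, n = 4). The log2 fold change, the lowest of the 32, was -1.66, with an SE of 0.43 (adjusted p = 0.0246 in limma; exact permutation p = 0.0571). The limma adjusted p was 0.0727 without estrus replicate 1, 0.0976 without estrus replicate 2 and 0.0603 without diestrus replicate 4, and under 0.05 without any of the other 4 libraries. Pln lies within Cep85l, a gene on the opposite strand. Of the words of 50 bases in Pln transcripts, 56.2% were shared there, 52.9% with Gm47644 and only 3.24% with Cep85l. Cep85l averaged 3.14 ± 1.08 FPKM in estrus and 8.81 ± 4.37 FPKM in diestrus and also passed lower (log2 -1.17, limma adjusted p = 0.0388). The level of Gm47644, which holds most of the shared words, is not given here. Reads of Pln and of its neighbours may not have been told apart, and the part of this in the Pln result was not tested.

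Atp2a2, the calcium pump that phospholamban inhibits, was listed at 137, 138 and 149 FPKM in estrus, against 121, 109, 98.3 and 96.2 FPKM in diestrus. It rose by 0.42 on the log2 scale (SE 0.12, limma adjusted p = 0.0399). Atp2a2 was chosen after its values were seen, and whether its call holds without single libraries was not examined. The ratio of Pln to Atp2a2 was 0.0271, 0.0231 and 0.0355 in estrus replicates 1 to 3, against 0.129, 0.261, 0.0633 and 0.171 in diestrus replicates 1 to 4. No estrus ratio reached the lowest diestrus ratio. The geometric mean ratio in estrus was 0.204 times that in diestrus (exact two-sided permutation p = 0.0571, also when adjusted over the 2 ratios). This ratio was chosen after Pln and Atp2a2 had been seen to differ in opposite directions, so its p-value is only a description. The limit on telling reads of Pln apart, given above, applies to it too. Both levels are of whole-tissue RNA, not of muscle cells alone. Casq2, calsequestrin, which binds calcium in the store, had the lowest mean of all members, with 0.975 to 2.41 FPKM in estrus and 0.834 to 1.78 FPKM in diestrus. Jph2, junctophilin, which ties the store to the plasma membrane, was listed at 29.3 to 51.5 FPKM in estrus and 16.9 to 37.9 FPKM in diestrus (log2 0.51, SE 0.28, limma adjusted p = 0.196).

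Anchoring proteins carry force to the membrane and to neighbouring cells. Itga8, an integrin alpha chain of smooth muscle and mesenchymal cells (chromosome 2, 12106632 to 12301922), was listed at 1.98, 2.70 and 3.62 FPKM in estrus, against 4.00, 11.6, 5.83 and 10.4 FPKM in diestrus. No estrus library reached the lowest diestrus library, diestrus replicate 1. The means were 2.77 ± 0.824 FPKM in estrus (SD, n = 3) and 7.95 ± 3.61 FPKM in diestrus (SD, n = 4). The log2 fold change was -1.17, with an SE of 0.34 (adjusted p = 0.0360 in limma; exact permutation p = 0.0571). The limma adjusted p was 0.112, 0.112 and 0.0503 without estrus replicates 1 to 3, 0.0701, 0.0522 and 0.0856 without diestrus replicates 2 to 4, 0.0662 with no filter and 0.0512 with quantile normalization, against 0.00992 without diestrus replicate 1. Actn1, alpha-actinin, which crosslinks actin and is also made by non-muscle cells (chromosome 12, 80167547 to 80260371), was listed at 182, 232 and 177 FPKM in estrus, against 139.5, 160.1, 146 and 122 FPKM in diestrus. Its groups did not overlap, but it stayed short of the threshold (log2 0.47, SE 0.16, limma adjusted p = 0.0533; exact permutation p = 0.0286).

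Flna, filamin, a crosslinker of actin, averaged 384 ± 97.5 FPKM in estrus and 361 ± 67.0 FPKM in diestrus. Vcl, vinculin, of adhesion plaques, averaged 88.0 ± 17.2 FPKM in estrus and 73.9 ± 22.5 FPKM in diestrus. Of its words of 50 bases, 25.1% were shared with Ap3m1 on the opposite strand. Ap3m1 passed higher in estrus (log2 0.61, limma adjusted p = 0.0232). Reads of Vcl and Ap3m1 may not have been told apart, and the part of this in the Vcl values was not tested. The intermediate filament gene Des, desmin, averaged 290.4 ± 94.4 FPKM in estrus and 307 ± 113 FPKM in diestrus. Synm, synemin, a partner of desmin, was less even, at 6.50 to 18.5 FPKM in estrus and 13.7 to 40.4 FPKM in diestrus (log2 -0.998, SE 0.41, limma adjusted p = 0.0970). Synpo2, an actin-bundling protein of the dense bodies, was listed at 40.3 to 69.7 FPKM in estrus and 61.0 to 102 FPKM in diestrus (log2 -0.67, SE 0.24, limma adjusted p = 0.0643). Pgm5, aciculin, a component of adherens junctions in muscle, averaged 56.1 ± 20.3 FPKM in estrus and 86.8 ± 35.2 in diestrus, and Ldb3, a PDZ and LIM protein best known from striated muscle, 3.28 ± 1.06 in estrus and 2.82 ± 1.12 in diestrus.

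**Figure D4:**
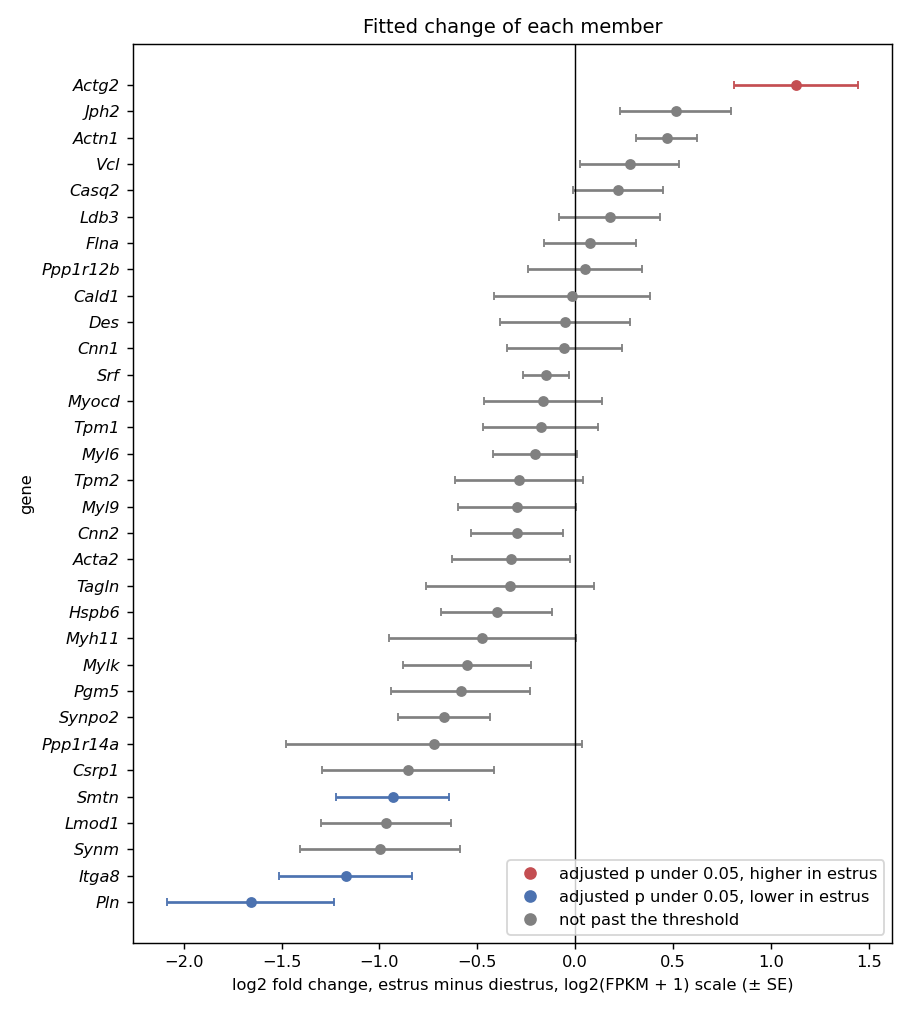
Fitted difference of each member in log2(FPKM + 1), estrus minus diestrus (horizontal axis), with bars for its SE, red or blue where the adjusted p was under 0.05. Actg2 stands alone to the right at 1.13, Pln, Itga8 and Smtn passed on the left at -1.66, -1.17 and -0.93, and Lmod1 and Synm lie among them without passing.

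The transcription factors of the programme were among the lower members, and neither passed. Srf, serum response factor (chromosome 17, 46548329 to 46556175), averaged 28.4 ± 0.778 FPKM in estrus and 31.7 ± 3.63 FPKM in diestrus (log2 -0.15, SE 0.12). It was the steadiest member, with a highest value 1.05 times the lowest in estrus and 1.29 times in diestrus. Myocd, myocardin, its smooth muscle cofactor, was listed at 4.14, 5.69 and 7.38 FPKM in estrus, against 3.52, 9.02, 6.26 and 8.16 FPKM in diestrus (log2 -0.16, SE 0.30). Myocd was lowest in replicate 1 of each group.

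RefSeq promoter windows, 250 bases before to 50 after a start site, were available for 28 of the 32 genes. Actg2, Tagln, Myh11 and Myocd were not among them. The CArG box was searched in its strict form, which reads the same way on both strands. It occurred in windows of 6 of 28 members (21.4%), namely Srf, Myl9, Vcl, Cnn2, Myl6 and Ldb3, against 488 of 27025 genes with a window (1.81%). Of these 6 genes none passed the test. Smtn, Pln and Itga8, which passed lower, had no match, nor did the other members with a window, Acta2 among them. That says only that the strict form is not in these windows. Looser forms of the box were not searched. A match is likewise a description of letters, not a binding site. To show both kinds, the 250 bases before the start site of Srf, which had 2 boxes, Myl9 and Vcl, each with 1 box, and of the 3 members that fell are printed 5′ to 3′ on the gene's strand in GRCm38.p6, with boxes in capitals.
Srf, chr17:46556163-46556412, minus strand: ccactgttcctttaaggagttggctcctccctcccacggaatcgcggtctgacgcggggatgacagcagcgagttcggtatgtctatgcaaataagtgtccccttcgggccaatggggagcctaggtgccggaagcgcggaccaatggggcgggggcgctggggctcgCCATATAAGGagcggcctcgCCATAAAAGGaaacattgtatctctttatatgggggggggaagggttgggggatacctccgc
Myl9, chr2:156775214-156775463, plus strand: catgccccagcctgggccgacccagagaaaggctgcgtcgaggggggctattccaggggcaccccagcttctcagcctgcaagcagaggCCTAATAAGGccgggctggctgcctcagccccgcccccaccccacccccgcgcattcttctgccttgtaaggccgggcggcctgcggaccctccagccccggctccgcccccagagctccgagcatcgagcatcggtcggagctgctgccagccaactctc
Vcl, chr14:20929148-20929397, plus strand: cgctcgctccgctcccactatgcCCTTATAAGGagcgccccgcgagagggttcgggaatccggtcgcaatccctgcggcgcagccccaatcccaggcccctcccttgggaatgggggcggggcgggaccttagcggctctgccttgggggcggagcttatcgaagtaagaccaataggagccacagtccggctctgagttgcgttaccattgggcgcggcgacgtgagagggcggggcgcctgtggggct
Smtn, chr11:3539293-3539542, minus strand: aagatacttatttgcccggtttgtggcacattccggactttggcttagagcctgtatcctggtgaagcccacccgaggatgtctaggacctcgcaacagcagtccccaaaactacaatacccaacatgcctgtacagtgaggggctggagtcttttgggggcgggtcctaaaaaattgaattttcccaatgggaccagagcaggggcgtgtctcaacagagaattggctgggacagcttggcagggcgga
Pln, chr10:53337436-53337685, plus strand: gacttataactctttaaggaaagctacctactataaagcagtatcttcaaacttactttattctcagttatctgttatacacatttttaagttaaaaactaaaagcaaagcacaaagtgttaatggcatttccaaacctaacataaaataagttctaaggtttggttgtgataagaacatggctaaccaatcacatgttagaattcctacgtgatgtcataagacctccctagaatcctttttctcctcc
Itga8, chr2:12301945-12302194, minus strand: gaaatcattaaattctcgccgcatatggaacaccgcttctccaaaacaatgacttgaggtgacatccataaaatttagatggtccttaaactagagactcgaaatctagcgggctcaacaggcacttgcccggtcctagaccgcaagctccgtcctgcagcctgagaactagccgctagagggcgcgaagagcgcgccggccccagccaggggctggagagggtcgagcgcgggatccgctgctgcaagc
The boxes began 82 and 62 bases before the start site in Srf, 161 bases before it in Myl9 and 227 bases before it in Vcl.

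Since the libraries differed in their total of contractile RNA, each member was also placed within its own library, as log2 of its FPKM over that of the median member. Actg2 lay on average 3.20 log2 units above the median member in estrus and 1.74 above it in diestrus, whereas Acta2 lay 3.03 above it in estrus and 3.03 in diestrus. Actg2, Jph2, Actn1 and Vcl were relatively higher in every estrus library than in any diestrus library. Smtn, Lmod1, Itga8 and Pln were relatively lower in every estrus library, and the remaining 24 members overlapped. The limits on telling reads of Vcl and of Pln apart, given above, apply here too. These 4 members above and 4 below, of 32, stand against 33.3% of all tested rows on the same scale, 24.5% above and 8.79% below. With all rows scaled by the median member, a choice made after the data were seen, Actg2 rose by 1.46 (limma adjusted p = 0.0160) and Jph2 by 0.83 (limma adjusted p = 0.0487), while Pln fell by 1.37 (limma adjusted p = 0.0218) and Itga8 by 0.91 (limma adjusted p = 0.0322), against 17.4% of all tested rows higher and 5.19% lower in that fit. Smtn then had a limma adjusted p of 0.109. This scaling set the median change over all tested rows to 0.34 on the log2 scale and that of the members to 0.04, so these values are changes relative to the muscle genes and not to the tissue.

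**Figure D5:**
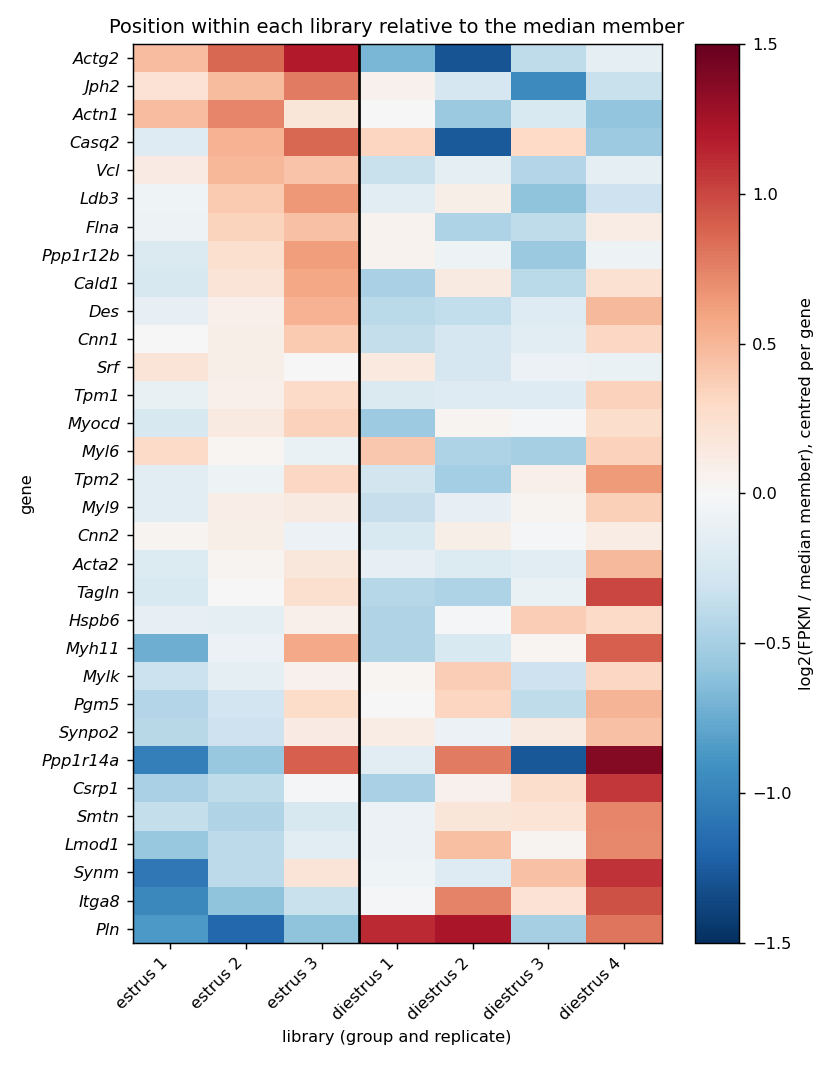
Log2 of FPKM over the median member of the same library, centred per gene (colour), for 32 genes (rows, ordered by estrus minus diestrus) in 3 estrus and 4 diestrus libraries (columns). Actg2, Jph2, Actn1 and Vcl are redder in all estrus columns, Smtn, Lmod1, Itga8 and Pln bluer, and the rows between them show no division by group.

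Genes that work beside the members were examined in 5 further lists. Among 17 tested relatives of the contractile genes that are not members, 5 rose and 4 fell (52.9%, against 31.1% of all tested rows). Tpm3, a tropomyosin of non-muscle cells, was listed at 72.3, 83.2 and 72.8 FPKM in estrus, against 35.8, 40.5, 37.3 and 29.3 FPKM in diestrus (log2 1.08, SE 0.14, limma adjusted p = 0.00250). Cnn3, acidic calponin, fell by 1.55 (limma adjusted p = 0.00265) and Smtnl2, a smoothelin-like gene, fell by 1.06 (limma adjusted p = 0.00401), without overlap between the groups. Actg1, Tagln2 and Actn4 were among the other genes that rose, and Lima1 and Vim were the others that fell. The part of the epithelium, stroma and endothelium marker differences given above in these changes was not tested, and Vim is itself in the stroma list.

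In the list of sarcoplasmic reticulum calcium handling, 1 of 22 tested genes rose and 8 fell (40.9%, against 31.1% of all tested rows). The all-row shares were 17.2% higher and 14.0% lower. The median log2 fold change of the list was -0.42, against 0.05 over all tested rows. Atp2a2 was the gene that rose. Atp2a3, a calcium pump found in endothelial, epithelial and blood cells, fell to 16.8 ± 0.674 FPKM in estrus, against 32.6 ± 4.85 FPKM in diestrus (log2 -0.91, SE 0.14, limma adjusted p = 0.00444). Slc8a1, the sodium-calcium exchanger, fell by 1.10 (limma adjusted p = 0.0144) and Camk2d, a calmodulin-dependent kinase, fell by 0.91 (limma adjusted p = 0.0314). Camk2d was above the threshold at a limma adjusted p of 0.101 and 0.110 without estrus replicates 1 and 2 and of 0.0642, 0.0583 and 0.0550 without diestrus replicates 2 to 4, and of 0.0529 with no filter. Asph, Jph4, Stim1, Cacnb2 and Itpr2 also passed lower, at limma adjusted p values from 0.0339 to 0.0481. Whether their calls hold without single libraries was not examined. Sln, sarcolipin, another pump inhibitor, was listed at 0 in every library.

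Calcium sensitisation and the myosin phosphatase changed at 2 of 18 genes (11.1%, against 31.1% of all tested rows), 1 in each direction. Prkg1, the cyclic GMP-dependent kinase that relaxes smooth muscle, was listed at 6.12, 5.83 and 6.94 FPKM in estrus, against 11.7, 10.9, 13.2 and 13.2 FPKM in diestrus (log2 -0.86, SE 0.12, limma adjusted p = 0.00356). Ppp1cb, the catalytic subunit of the phosphatase, rose by 0.51 (limma adjusted p = 0.0305). That call was lost without any single library but diestrus replicate 1, at limma adjusted p values of 0.0867, 0.115 and 0.0604 without estrus replicates 1 to 3 and 0.0563, 0.0692 and 0.0798 without diestrus replicates 2 to 4, and with quantile normalization (0.263). Ppp1r12c, a further targeting subunit, had a log2 fold change of -0.38 (limma adjusted p = 0.0795).

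In the adhesion plaque and dystrophin list, 1 of 29 tested genes rose and 3 fell (13.8%, against 31.1% of all tested rows). Pxn, paxillin, rose by 0.55 (limma adjusted p = 0.0177), with limma adjusted p values of 0.0900 and 0.0513 without estrus replicates 2 and 3 and 0.0798 with quantile normalization. Sorbs3, vinexin, fell by 1.11 (limma adjusted p = 0.0102) and Zyx, zyxin, fell by 0.97 (limma adjusted p = 0.0237). Zyx had limma adjusted p values of 0.0730 and 0.0954 without estrus replicates 1 and 2 and 0.0599 without diestrus replicate 4, and Pdlim3 was the third gene that fell. Among serum response factor cofactors and regulators, 1 of 19 tested genes rose and 2 fell (15.8%, against the same 31.1%). Klf4, a factor that represses smooth muscle genes in cultured cells and is also epithelial, rose by 2.51 (limma adjusted p = 0.00141). Hey2 fell by 0.92 (limma adjusted p = 0.00478) and Smad3 fell by 0.75 (limma adjusted p = 0.0159), with a limma adjusted p of 0.0700 for Smad3 without estrus replicate 2.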

How the data were processed

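RNA had been purified on RNeasy columns with DNase treatment and made into libraries with the Illumina TruSeq RNA kit (from the labels' protocols). FPKM, 1 column per library, is the deposited unit. TopHat2 2.0.4 and the mm10 build were used by the authors in a role not stated, per the submitters' processing notes. The FPKM program, annotation and strand setting were not given in the sources used here. Table columns were matched by the sample descriptions, 0 were left over, and titles gave the groups. FPKM carry no read counts, so absolute depth is unknown and no count model was used. Rows with at least 1 FPKM in at least 3 libraries entered limma 3.58.1 (R 4.3.3) as log2(FPKM + 1), a scale that understates changes of low genes. Moderation followed the intensity trend, and two-sided p-values were Benjamini-Hochberg adjusted over all 13920 rows. Exact permutation enumerated all 35 assignments of the 7 libraries. Alternatives were other pseudocounts, filters and scalings, library weights, a replicate block, single libraries left out and, added after seeing the data, scaling to the median member.

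Members and lists were chosen with earlier results of these data known, so list counts are descriptions. All members are named; values in every library are given for members that passed or whose groups did not overlap and for the 10 with the highest means. From each other list, up to 3 genes with the smallest p are given with a fold change and adjusted p. Further genes that passed are only named, and their calls were not examined without single libraries. Atp2a2, Cep85l, Ap3m1 and both ratios were chosen after their values were seen. Coordinates are from GENCODE M21 on GRCm38, the assembly called mm10, and promoters from RefSeq. Plots came from Python 3.11.15 with matplotlib 3.10.9.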

Additional observations from a re-analysis of the deposited data

Results flagged for a closer look

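For 47 genes, the 32 members and 15 genes of the other lists, the 4 diestrus libraries were checked for a single library far from the other 3, which chance gives in about 1 of 20 genes, and 2 were found. Hspb6 was at 6.68 FPKM in diestrus replicate 1, against 14.6 to 15.3 in the other diestrus libraries and 8.05 to 10.9 in estrus. Hey2 was at 3.71 FPKM in diestrus replicate 1, against 4.65 to 4.81 in the other diestrus libraries and 1.68 to 2.30 in estrus.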

How the results depend on the processing

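The number of members called higher was 1 and lower 3. The counts were 0 and 1 with no filter, 3 and 11 with library weights, 1 and 1 with the replicate block, and 2 and 2 with scaling to the median member; single libraries left out gave 0 to 1 higher and 0 to 8 lower. Over all tested rows, 2393 were higher and 1943 lower. With library weights these were 4944 and 4423, with the replicate block 1299 and 982, with a mean of at least 5 FPKM 2064 and 1181, with quantile normalization 1684 and 1914, with scaling to the median member 2424 and 723, and without single libraries 854 to 2866 and 579 to 2445. Same-numbered libraries had deviations correlated at 0.198, 0.0243 and 0.169. The best diestrus match was replicate 1 for estrus replicates 1 and 2, and replicate 4 for estrus replicate 3. So few libraries cannot settle whether the numbers mark a pairing. Diestrus replicate 4 has no partner in the replicate block, so it adds nothing to the fold changes of that fit. The median member was at -0.10 in the block and also without diestrus replicate 4. Under that block Smtn (limma adjusted p = 0.0863), Pln (0.0772) and Itga8 (0.0608) lost their calls while Synm gained one. The direction of some members changed, among them Tagln, at -0.33 in the main fit. With the replicate block Tagln was at 0.0105, Cnn1 at 0.10, Des at 0.16 and Cald1 at 0.12. With quantile normalization Ppp1r12b was at -0.13 and Flna at -0.13. With scaling to the median member Cnn1 was at 0.27, Cnn2 0.0288, Des 0.28, Myl6 0.12 and Myl9 0.0321. In that scaling Tpm1 was at 0.15, Tpm2 0.0413, Cald1 0.31, Myocd 0.12 and Srf 0.17. Without single libraries Tagln ran from -0.60 to 0.0105, Cnn1 from -0.26 to 0.10, Des from -0.30 to 0.16, Cald1 from -0.29 to 0.24, Myocd from -0.40 to 0.0157, Ppp1r12b from -0.22 to 0.32 and Flna from -0.0948 to 0.28. FPKM hold no counts, so how depth limits low members such as Casq2 cannot be given. None of the members whose direction changed passed the test with all libraries, and the causes were not tested.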
